A study of Mus musculus with 6 samples.

Results

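Glycolysis splits glucose into pyruvate in the cytosol, and 10 of its genes were followed through 6 RNA libraries of EML cells, a mouse bone marrow progenitor line that grows in stem cell factor. They are the glucose transporter Slc2a1, the enzymes Hk2, Aldoa, Tpi1, Gapdh, Pgk1, Eno1, Pkm and Ldha, and Eno1b, a copy of Eno1. They were chosen by name, with earlier results of these data known, and each name matched 1 of the 23146 entries through its RefSeq accession. Entries are per gene or per group of transcripts: 3 of the 10, those of Aldoa, Pkm and Ldha, carry more than 1 accession, so transcript forms such as the M1 and M2 forms of Pkm are not told apart. The study set a KAI1 knockdown (n = 2 libraries) against its own knockdown control (n = 2), and a KAI1 overexpression (n = 1) against its own overexpression control (n = 1). Per the labels all libraries are EML cells of strain BDF1 grown in 1 medium, and the controls are wild type. KAI1 is a tetraspanin membrane protein made from Cd82. The sources used here do not give the means by which KAI1 was lowered or raised, nor whether a control received a vector. The knockdown libraries are numbered, with no word on whether they came from separate cultures; a p-value here therefore reflects the spread between 4 libraries, and that spread may be technical.

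The upper steps of the pathway spend energy to trap and cleave glucose, and the lower steps return it while reducing a cofactor that Ldha re-oxidises by turning pyruvate into lactate. Under low oxygen the factor HIF1 raises most of these genes, and Myc raises many of them in growing cells. Eno1b is annotated as a retrogene, a copy of a gene made from its reverse-transcribed mRNA. In the GENCODE M21 transcripts the coding parts of Eno1b and Eno1 are both 1302 bases long and differ at 8 of them, 99.4% identity, and the predicted proteins of 434 residues are the same. Of the 50-base windows in the coding part of Eno1b, 80.7% occur unchanged in Eno1, so a short read from 1 gene can match both. The other enolase genes share none of these windows with Eno1, with coding identity of 75.1% for Eno2 and 76.7% for Eno3.

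The start regions of Slc2a1, Hk2 and Pgk1 are printed since these members stood at opposite ends across the libraries, with Slc2a1 and Hk2 highest in the library where Pgk1 was lowest. Each window runs from 250 bases before to 50 after the gene's start, 5′ to 3′ along the gene, from RefSeq on GRCm38.p6, which is not the build of the deposited coordinates. Capitals mark ACGTG or its reverse complement CACGT, 1 form of the core of the element that HIF1 binds. Other forms of that core were not counted.
Slc2a1 (chr4:119108495-119108794, plus strand): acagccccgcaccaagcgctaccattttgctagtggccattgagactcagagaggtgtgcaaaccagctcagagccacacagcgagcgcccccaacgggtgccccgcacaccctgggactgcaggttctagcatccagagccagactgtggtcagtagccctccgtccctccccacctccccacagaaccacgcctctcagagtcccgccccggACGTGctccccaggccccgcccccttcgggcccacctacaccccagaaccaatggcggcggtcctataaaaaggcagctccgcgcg
Hk2 (chr6:82774405-82774704, minus strand): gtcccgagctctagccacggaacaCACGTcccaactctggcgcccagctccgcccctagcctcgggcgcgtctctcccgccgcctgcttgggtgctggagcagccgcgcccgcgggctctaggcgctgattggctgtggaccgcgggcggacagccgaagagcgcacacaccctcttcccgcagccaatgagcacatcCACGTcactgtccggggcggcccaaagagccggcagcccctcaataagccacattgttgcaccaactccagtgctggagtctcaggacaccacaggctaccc
Pgk1 (chrX:106186850-106187149, plus strand): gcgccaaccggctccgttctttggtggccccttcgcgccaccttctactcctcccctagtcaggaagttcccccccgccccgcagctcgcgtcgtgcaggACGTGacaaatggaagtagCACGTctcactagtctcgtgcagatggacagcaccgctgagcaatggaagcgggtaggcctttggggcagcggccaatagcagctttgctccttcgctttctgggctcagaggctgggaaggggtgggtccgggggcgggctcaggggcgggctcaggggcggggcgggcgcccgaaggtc
This form of the core stood in 8 of the 15 windows of members, which cover 7 of the 9 members that have a window. It stood in 19.6% of all 32851 windows of that length, and the windows of 1 gene can overlap. Eno1, with 3 windows, and Tpi1 had none of these letters there. The longer CACGTG, which Myc and its partners bind and which contains the same core, stood in 7.15% of all windows and, among the members, in 1 window of Ldha. All these matches describe letters in a window and were not tested as binding sites.

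Levels are the authors' RPKM, reads relative to transcript length and to mapped reads, so genes can be compared per length. The files state no depth; from the steps between low values it was about 12.7 and 19.3 M reads (M, 1e6) in the KAI1 knockdown, 18.9 and 9.84 M in the knockdown control, 19.5 M in the KAI1 overexpression and 25.7 M in the overexpression control. Cd82, the targeted gene, stood at 7.65 and 6.91 RPKM in the KAI1 knockdown, 43.9 and 13.8 RPKM in the knockdown control, 15.2 RPKM in the KAI1 overexpression and 11.9 RPKM in the overexpression control. Knockdown control replicate 1 stood apart from the other libraries in its markers of blood cell types. Its mast cell and basophil markers summed to 78455 RPKM over 15 genes, against 16848 in control replicate 2, and its 11 erythroid markers summed to 201 RPKM, against 4980.0 in control replicate 2. The erythroid list summed to 3819 and 4586 RPKM in the KAI1 knockdown, 1102 RPKM in the KAI1 overexpression and 3196 RPKM in the overexpression control, and 6 of its 11 genes reached 1 RPKM in both knockdown control replicate 1 and the KAI1 overexpression. The same mast cell list summed to 9010 and 7926 RPKM in the KAI1 knockdown, 26141 RPKM in the KAI1 overexpression and 6870 RPKM in the overexpression control. Between 12 and 15 of the 15 reached 1 RPKM in a library, beside the label basophil; Fcer1a was at 0 in KAI1 knockdown replicate 1 and control replicate 2. Of 4 macrophage and dendritic cell markers at most 1 reached 1 RPKM and C1qa was at 0 throughout; of 5 lymphoid markers 0 did, with Cd3e, Pax5 and Rag1 at 0 throughout. The 8 neutrophil and monocyte markers summed to 921 to 1733 RPKM, with 3 to 6 of them at 1 RPKM or more. Elane was at 0 in both KAI1 knockdown libraries and in both libraries of the overexpression arm. The 5 stromal markers summed to 243 to 941 RPKM and the 6 stem and progenitor markers to 68.7 to 749 RPKM, both highest in knockdown control replicate 1. Of the stromal markers 2 reached 1 RPKM in knockdown control replicate 1, where Col1a2 and Col3a1 were at 0. In that library, however, 1 of the 6 stem and progenitor markers reached 1 RPKM, the fewest of all libraries, against up to 4 elsewhere. Flt3 and Hoxa9 were at 0 in it, and nearly all of the sum came from 1 gene. In bulk RNA, fewer cells of a type and less RNA per cell cannot be told apart.

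Per length, the 2 members of the entry steps had far lower RPKM than most of the others. Gapdh, which oxidises glyceraldehyde phosphate, had the highest level of the 10 in all 6 libraries, from 2389.6 to 5671 RPKM. Aldoa, which cleaves fructose bisphosphate, was next in 5 libraries, and Pkm, which makes pyruvate, was next in the overexpression control. Slc2a1 ranged from 12.1 to 72.4 RPKM and Hk2, which phosphorylates glucose, from 14.2 to 33.0 RPKM. Hk1, another hexokinase of the same step, ranged from 61.4 to 98.0 RPKM. The 10 genes together took 0.729% and 1.17% of all RPKM in the KAI1 knockdown, 0.645% and 1.02% in the knockdown control, 0.820% in the KAI1 overexpression and 0.939% in the overexpression control. The highest library of each gene stood 1.73-fold (Ldha) to 40.6-fold (Eno1b) above its lowest. The median of that ratio was 1.88 over the 5239 entries that averaged 10 RPKM or more and had no 0.

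**Figure D1:**
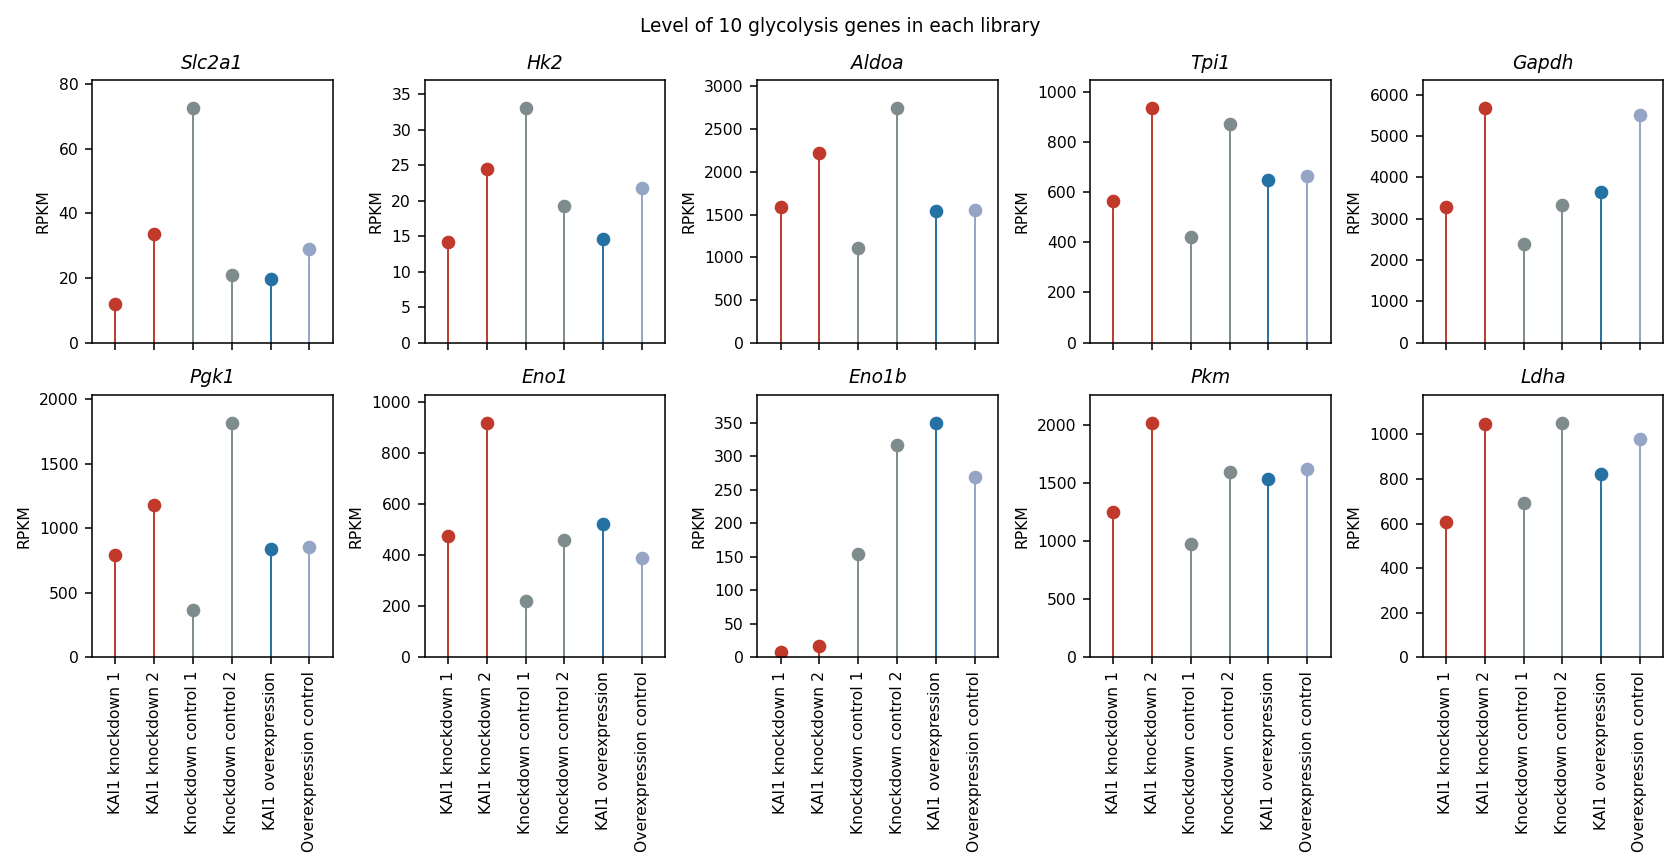
RPKM (vertical axes, each from 0) of the 10 glycolysis genes in the 6 libraries, 1 point per library: KAI1 knockdown in red, its controls in grey, KAI1 overexpression in dark blue and its control in light blue. Knockdown control replicate 1 is the highest library for Slc2a1 and Hk2, as for 30.3% of all entries tested. It is the lowest for 6 other genes, as for 27.9% of those entries. Eno1b is at 8.61 and 16.5 RPKM in the KAI1 knockdown only.

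Eno1b set the KAI1 knockdown apart from every other library. Enolase makes phosphoenolpyruvate, the substrate of Pkm. Eno1b, placed on chromosome 18 from 48082495 to 48267634 in mm9, was read at 8.61 and 16.5 RPKM in the KAI1 knockdown, against 154 and 318 RPKM in the knockdown control. It stood at 349.8 RPKM in the KAI1 overexpression and 269 RPKM in the overexpression control. Both knockdown libraries thus lay far below the other 4, which overlap between the arms, and about 197 and 571 reads stood behind the knockdown values. The means were 12.5 ± 5.56 RPKM in the KAI1 knockdown and 236 ± 116 RPKM in the control (SD, n = 2 each), 17.5-fold apart on the RPKM + 1 scale. The difference was -4.10 on the log2(RPKM + 1) scale (SE 0.51). With limma over 10113 entries it had an unadjusted p of 9.05e-04, the single member below 0.05, where 3.32% of entries were, and after Benjamini-Hochberg adjustment it missed the threshold (adjusted p = 0.83). Without knockdown control replicate 1 it was -4.62 (limma adjusted p = 0.31). Both knockdown libraries lay at least 2-fold below all 4 others in 15 entries, 0.148% of those tested. The deposited span of Eno1b is 185140 bases, while the gene in RefSeq on GRCm38.p6 is 3045 bases long.

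Eno1 lay the other way. Eno1 (chromosome 4, 149611306 to 149622982) stood at 477 and 919 RPKM in the KAI1 knockdown, against 219 and 458 RPKM in the knockdown control. The lower knockdown library lay just above the higher control, so the groups did not overlap. The difference of 1.06 on the log2(RPKM + 1) scale (SE 0.55) missed the limma threshold (adjusted p = 0.83). Eno1 alone among the members was at least 1.5-fold above the control within both replicate numbers, as were 2.36% of all entries. The numbers are not stated to pair the libraries, and KAI1 knockdown replicate 1 was close to control replicate 2, at 477 and 458 RPKM.

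Summed, Eno1 and Eno1b did not separate the groups. The sum was 485 and 935 RPKM in the KAI1 knockdown, against 373 and 776 RPKM in the knockdown control. Each control lay below the knockdown library of its own number and the ranges overlapped. The means were 710.4 ± 318 RPKM in the KAI1 knockdown and 575 ± 285 RPKM in the control (SD, n = 2 each). Entered into the limma fit in place of its parts, the sum had a difference of 0.32 (SE 0.55, adjusted p = 0.90), and an exact two-sided permutation test over the 4 libraries gave p = 0.667. The sum turned to -0.20 without knockdown control replicate 1 and to -0.15 without KAI1 knockdown replicate 2. It was 872 RPKM in the KAI1 overexpression and 659 RPKM in the overexpression control.

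The split between the copies was nearly constant outside the knockdown. Eno1b held 1.77% and 1.76% of the summed RPKM in the KAI1 knockdown, against 41.2% and 40.9% in the knockdown control. It held 40.1% in the KAI1 overexpression and 40.9% in the overexpression control. The knockdown libraries were nearly equal to each other, as were the other 4 libraries, although Eno1 itself differed by 1.06 on the log2(RPKM + 1) scale between the control replicates. The difference was -39.3 percentage points, with means of 1.77% ± 0.00979 in the KAI1 knockdown and 41.1% ± 0.196 in the control (SD, n = 2 each). The exact two-sided permutation test gave p = 0.333, the smallest p that 2 against 2 can give. Which of the 2 loci the shared reads came from cannot be read from these values, and the sources used here do not say whether reads were assigned alike in the 6 libraries; its part in the split was not tested.

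**Figure D2:**
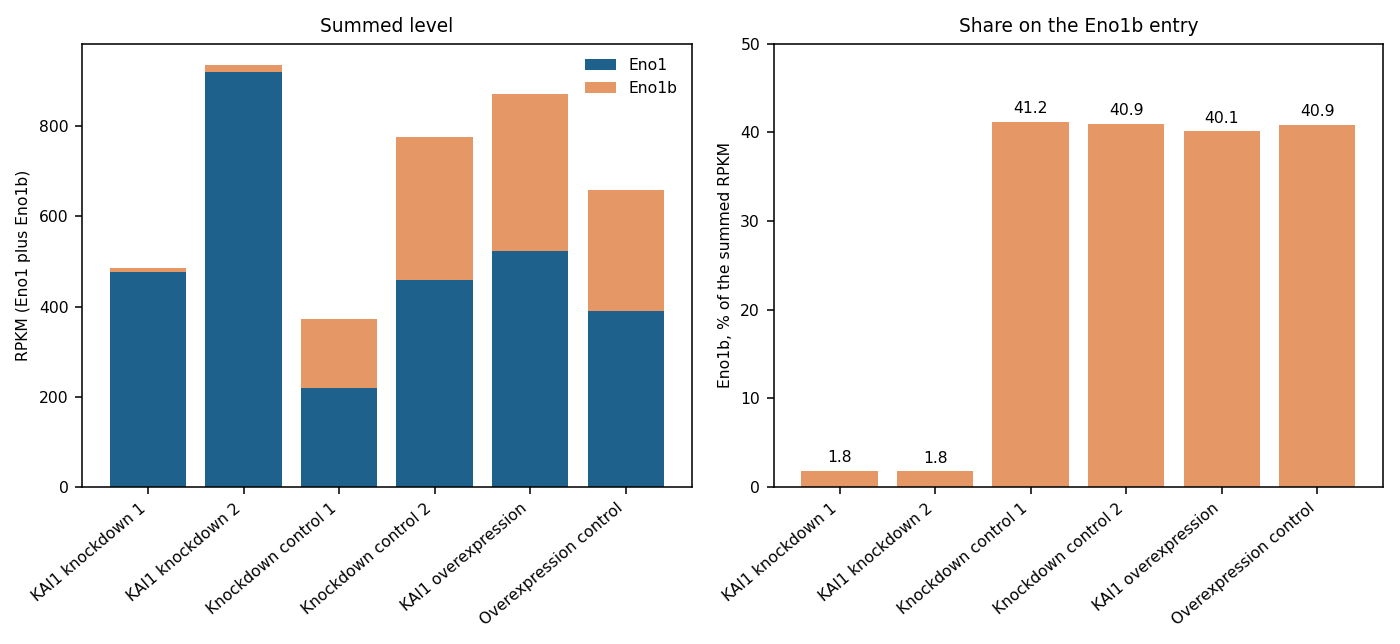
Left, RPKM of Eno1 (blue) and Eno1b (orange) stacked to their sum in each of the 6 libraries; right, Eno1b in percent of that sum. The Eno1b share is 1.77% and 1.76% in the KAI1 knockdown libraries and 40.1% to 41.2% in the other 4, while the summed level is 485 and 935 RPKM in the KAI1 knockdown and 373 to 872 RPKM in the other 4.

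As background, 29 other pairs of genes were taken whose GENCODE transcripts share at least 50% of their 31-base windows and whose summed level averaged at least 10 RPKM. The pairs rest on shared transcript sequence alone, so not all are gene copies, and some genes stand in more than 1 pair. Among them the share held by the lower gene differed by -15.8 to 9.80 percentage points between the KAI1 knockdown and the other 4 libraries, against -39.0 for Eno1 and Eno1b. In 21 of the 29 the difference was under 5 points. Several pairs had a small share in the other 4 libraries, down to 0%, and could not have fallen by many points. For those pairs a small difference in points says little. The knockdown shares lay outside those of the other 4 libraries in 6 of the 29, for example the adult beta globin genes Hbb-bt and Hbb-bs. Their mean share was 15.6% in the KAI1 knockdown and 7.53% in the others. The libraries came close, at 14.1% and 17.1% in the KAI1 knockdown and 3.47% to 13.2% in the others, with 13.2% in knockdown control replicate 2. In Dynlt1a and Dynlt1b, dynein light chain copies, the mean share was 49.6% in the KAI1 knockdown and in the others.

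**Figure D3:**
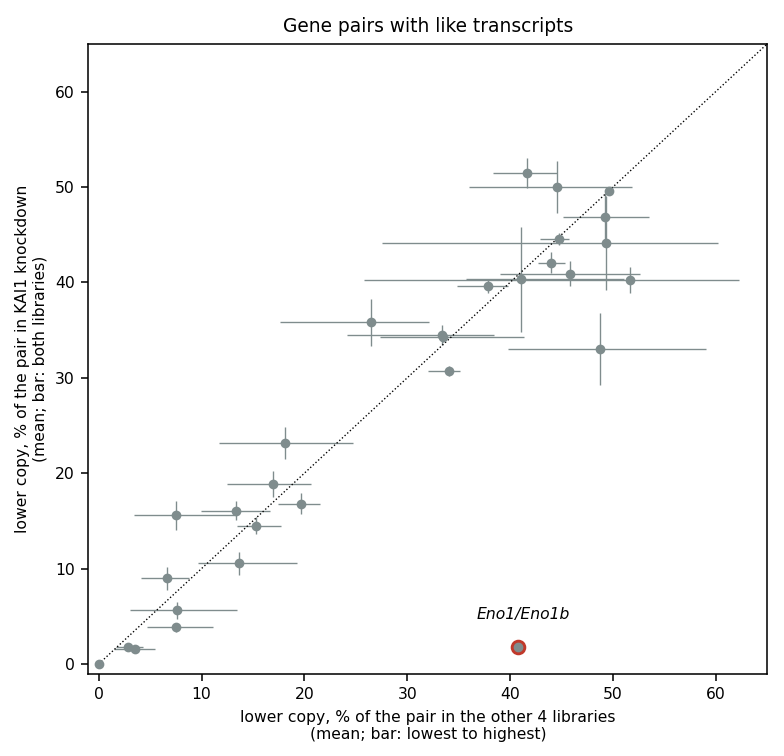
Share of the summed RPKM on the lower gene (lower copy on the axes) of 30 gene pairs with like transcripts, in percent. The mean of the 2 KAI1 knockdown libraries (vertical, bar over both) is set against the mean of the other 4 libraries (horizontal, bar from lowest to highest), with the line of equal shares dotted. Eno1 and Eno1b (red) lie at 1.77% against 40.8%, and the other pairs differ by -15.8 to 9.80 percentage points.

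Of the 10 genes limma called 0 in the knockdown, where it called 0.0297% of all entries. Beside Eno1, above both controls, and Eno1b, below both, the other 8 members overlapped between the groups. Over all entries tested, 21.5% lay above both controls and 17.0% below them, so 1 of 10 on each side is no more than that background. Eno1b was also at least 2-fold apart between the nearest libraries of the groups, as were 0.326% of entries on the lower side. On the higher side 0.188% of entries were. Eno1 was not among them, although its means were 2.06-fold apart on the RPKM + 1 scale. The median difference was 0.17 over the 10 members and 0.028 over all entries.

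Slc2a1 and Hk2 had their highest level in knockdown control replicate 1, as did 30.3% of all entries tested. Slc2a1, the main glucose carrier of blood cells (chromosome 4, 118781350 to 118809934), stood at 12.1 and 33.5 RPKM in the KAI1 knockdown, against 72.4 and 20.96 RPKM in the knockdown control. Hk2 (chromosome 6, 82675021 to 82724448) stood at 14.2 and 24.4 RPKM in the KAI1 knockdown, against 33.0 and 19.2 RPKM in the knockdown control. In both genes the 2 knockdown libraries straddled control replicate 2. The differences of -0.92 (SE 0.79) and -0.42 (SE 0.42) missed the limma threshold (adjusted p = 0.83 and 0.84). Without control replicate 1 they were -0.046 and -0.040. The mast cell marker sum was also highest in that control, as given above; its part in these values was not tested.

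The 8 members that act after Hk2 had the reverse order of controls, with replicate 2 above replicate 1, as had 49.2% of all entries. Eno1 and Eno1b among them can share reads. Pgk1, which makes the first ATP of the pathway (chromosome X, 103382463 to 103399038), stood at 792 and 1179 RPKM in the KAI1 knockdown, against 370.4 and 1815 RPKM in the knockdown control. The controls enclosed both knockdown libraries, and the difference of 0.24 (SE 0.84) had an adjusted p of 0.95 in limma, positive on the log2 scale although the mean of 985 RPKM in the KAI1 knockdown was below 1093 RPKM in the control. Leaving out control replicate 1 gave -0.91, and leaving out control replicate 2 gave 1.38. Aldoa stood at 1586 and 2221 RPKM in the KAI1 knockdown, against 1113 and 2743 RPKM in the knockdown control, and was enclosed in the same way. Its difference was 0.10 (SE 0.55, limma adjusted p = 0.97), and -0.55 without control replicate 1.

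Tpi1, which interconverts the triose phosphates, stood at 565 and 934 RPKM in the KAI1 knockdown, against 422 and 872 RPKM in the knockdown control. Gapdh stood at 3273 and 5671 RPKM in the KAI1 knockdown, against 2389.6 and 3344 RPKM in the knockdown control. Pkm stood at 1249.7 and 2018 RPKM in the KAI1 knockdown, against 972 and 1597 RPKM in the knockdown control. In these 3 genes KAI1 knockdown replicate 2 was highest and control replicate 1 lowest, while the middle libraries crossed. Gapdh had the largest difference of the 3, 0.61 (SE 0.43, limma adjusted p = 0.83). Ldha stood at 609 and 1044 RPKM in the KAI1 knockdown, against 693 and 1051 RPKM in the knockdown control, and its difference was -0.097 (SE 0.43, limma adjusted p = 0.96). It was 0.29 without KAI1 knockdown replicate 1 and 0.20 without control replicate 2, so its direction rests on single libraries.

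**Figure D4:**
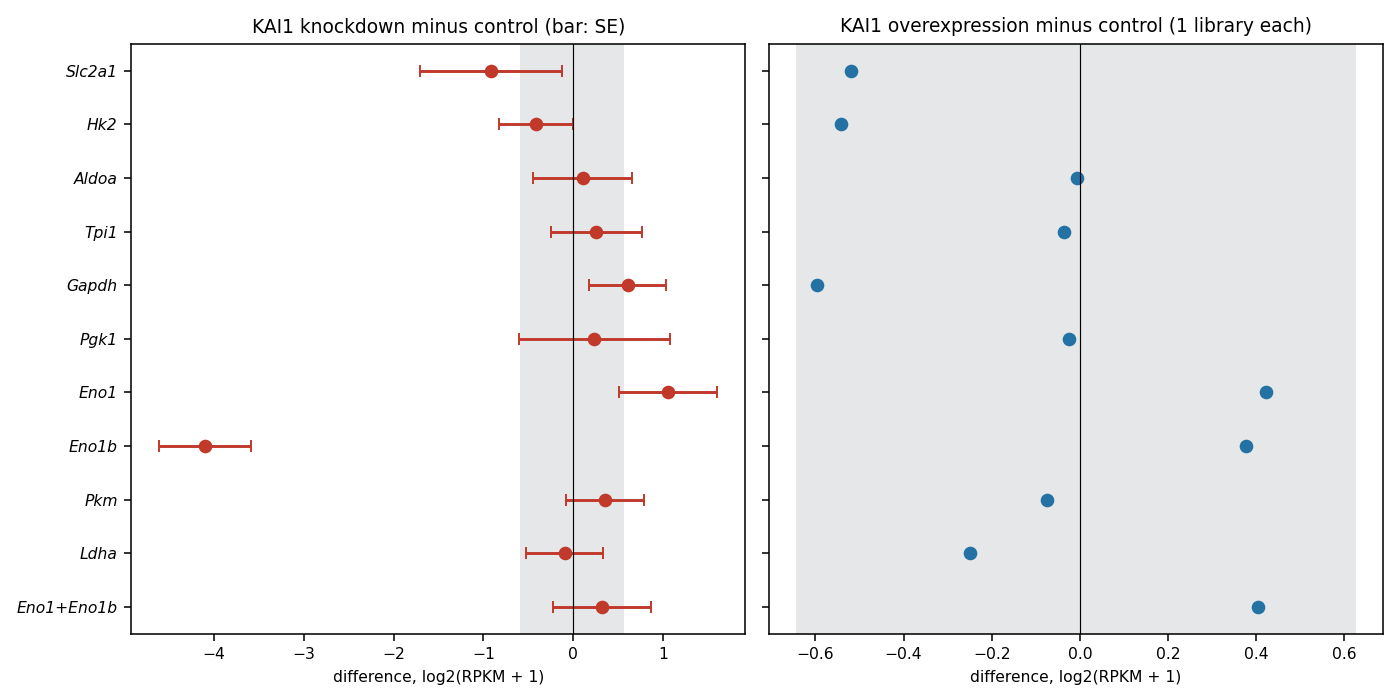
Difference on the log2(RPKM + 1) scale for the 10 genes and for Eno1 plus Eno1b: left, KAI1 knockdown minus control (points with SE, n = 2 each); right, KAI1 overexpression minus control (1 library each, no error). The grey band spans the 10th to 90th percentile of all entries; in the knockdown Eno1b, at -4.10, lies farthest outside it, and in the overexpression all points lie inside.

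In 7 of the 10 members the gaps between replicates of both groups exceeded the knockdown difference in size, as in 31.8% of all entries; Eno1, Eno1b and Gapdh were the others. KAI1 knockdown replicate 2 was above replicate 1 in all 10 members and at least 1.5-fold above it in 8, against 54.9% and 5.95% of all entries. The gap was 1.40 on the log2(RPKM + 1) scale in Slc2a1 and 0.48 in Aldoa, the widest and the narrowest of the 10. Knockdown control replicate 2 was at least 1.5-fold above control replicate 1 in 7 members, against 20.4% of all entries, and up to 2.29 log2 units above it in Pgk1. Slc2a1 and Hk2 went against the other members in the controls, where replicate 1 lay 1.74 and 0.75 log2 units above replicate 2.

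In the overexpression arm, with 1 library a side and no test, 0 of the 10 genes were 2-fold apart, where 4.92% of entries were higher and 5.21% lower by that much. Eno1 and Eno1b were the 2 that were higher, where 50.6% of entries were, with Eno1 at 522 RPKM in the KAI1 overexpression and 389.8 RPKM in its control, 1.34-fold on the RPKM + 1 scale, and Eno1b 1.30-fold. The other 8 were lower. Gapdh was at 3652 RPKM in the KAI1 overexpression and 5520.2 RPKM in its control, 0.662-fold. Slc2a1 was at 19.8 RPKM against 28.8 RPKM in the control, and Hk2 at 14.7 RPKM against 21.8 RPKM in the control, 0.697-fold and 0.687-fold. Ldha was at 823 RPKM against 978 RPKM in the control, 0.842-fold. Aldoa, Tpi1, Pgk1 and Pkm lay within 0.949-fold to 0.995-fold of the control. The erythroid marker sum was lower and the mast cell marker sum higher in the KAI1 overexpression library, as given above; their part in these values was not tested.

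Other genes of the pathway gave 0 calls as well. Of 40 further glycolysis genes listed, 39 had an entry and 25 reached the mean of 1 RPKM for the test. Limma called 0 of them, against 0.0297% of all entries, and 0 had an unadjusted p below 0.05, against 3.32% of all entries. Of the 25, 1 lay above both controls and 3 below, against 21.5% and 17.0% of all entries, and their median difference was 0.026. Pfkp, a phosphofructokinase subunit of the committed step, stood at 9.16 and 29.4 RPKM in the KAI1 knockdown, against 82.2 and 34.5 RPKM in the knockdown control (log2 difference -1.63, SE 0.71, limma adjusted p = 0.83). It shared with Slc2a1 and Hk2 its highest level in control replicate 1, and was at 29.6 RPKM in the KAI1 overexpression and 14.9 RPKM in its control. Of the 26 with a value for the overexpression arm, 3 were higher and 2 lower by 2-fold or more, against 4.92% and 5.21% of all entries. The median of the 26 was -0.092. Pgk2, a testis form of Pgk1, was listed at 0 in all libraries, as were Ldhb and Eno4.

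**Figure D5:**
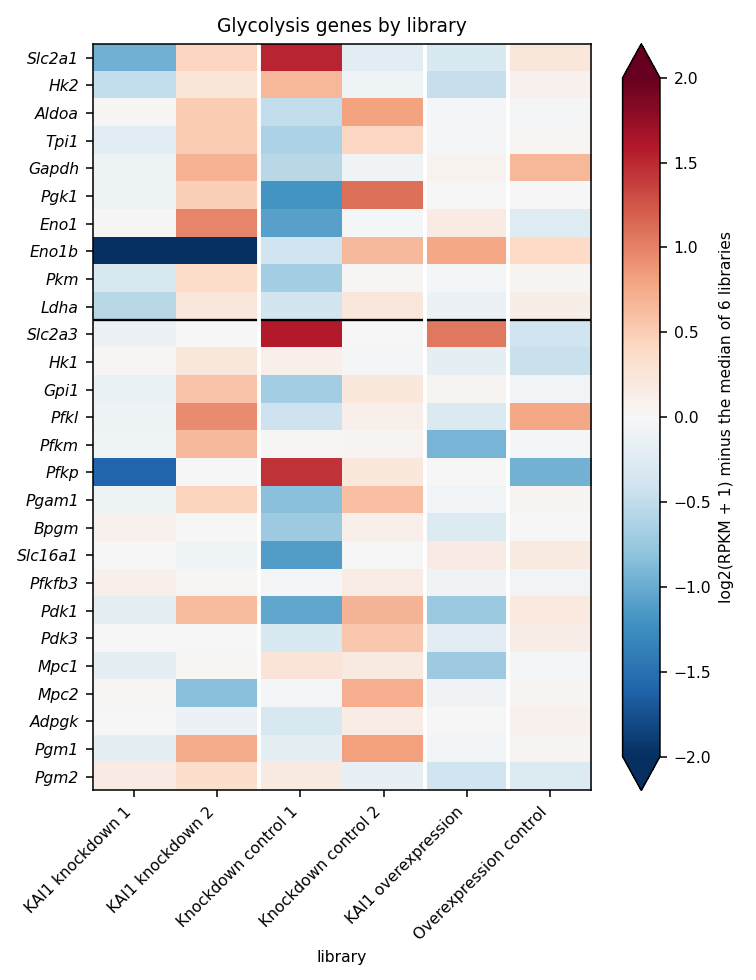
log2(RPKM + 1) minus the median of the 6 libraries (colour, limits at 2) for the 10 genes (above the line) and the 17 further glycolysis genes with a mean of at least 5 RPKM. Knockdown control replicate 1 is high for Slc2a1, Hk2, Slc2a3 and Pfkp and low for Pgk1 and Eno1.

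Entries of like pattern were ranked by Pearson correlation of log2(RPKM + 1) over the 6 libraries, among 5317 entries that averaged 10 RPKM or more, as a description without a test; the points share their libraries and depth. Closest to Eno1 plus Eno1b were Hspa14 (r = 0.98), Pdia6 (0.97), Nans (0.96), Rpl24 (0.96) and Reps1 (0.94). Among the members Pkm was nearest to it (0.93), and Slc2a1 (-0.35) and Hk2 (-0.36) ran the other way. Closest to Eno1b alone were the small RNA entry Snord32a (0.98), Golga7 (0.95), the small RNA entry Snord35b (0.95), Hprt (0.94) and Sar1b (0.93). Snord32a and Snord35b were listed at 0 in both KAI1 knockdown libraries, and the level of Hprt was 39.5 and 38.7 RPKM in the KAI1 knockdown, against 57.6 and 68.1 RPKM in the knockdown control.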

How the data were processed

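For each library the authors deposited RPKM per RefSeq entry, as the file headers state. Bowtie, TopHat2 2.0.9, Cufflinks and the build mm9 are listed, without settings, per the submitters' processing notes. The design expected RPKM or FPKM, and the headers say RPKM. Of 23170 entries, 24 repeated an accession and locus and were dropped, leaving 23146. Symbols came from RefSeq (22840 entries) and GENCODE (125); 181 had none. Starts were moved to count from 1. The knockdown was tested with limma 3.58.1 (R 4.3.3, mean-variance trend, two-sided) on log2(RPKM + 1), which understates changes of low genes, over the 10113 entries that averaged 1 RPKM or more in the 4 libraries. Adjustment followed Benjamini and Hochberg over all of them, with a threshold of 0.05. The overexpression arm has 1 library a side, and a size rule of 2-fold over the 9936 entries that averaged 1 RPKM or more there. Depth was estimated from whole-read steps of low values; that estimate and the fit were tested on simulated data. RPKM give no read counts, so no count model was run. Alternatives were the pseudocount, filter, scaling, a replicate block and leaving out each library; the like-transcript pairs used GENCODE transcripts, chosen after seeing the data in place of RefSeq proteins. From the fixed lists the text names genes with a mean of at least 10 RPKM whose groups do not overlap and differ 1.5-fold, and the 3 largest overexpression ratios; Slc2a3, Hk1, Hk3, Dlst, Myc, Mycn, Pgk2, Ldhb and Eno4, and the globin and Dynlt1 pairs, were named after their values were seen. Members and lists were chosen with earlier results of these data known.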

Additional observations from a re-analysis of the deposited data

How the results depend on the processing

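The Eno1b share of the enolase sum kept its direction in every alternative tried: the knockdown difference was -39.4 to -39.2 percentage points with any 1 library left out, and -36.6 when RPKM were weighted by transcript length. Over all entries limma called 3, against 5 with a pseudocount of 0.1, 0 without a filter on low values (15105 entries tested) and 0 to 1045 with 1 library left out. That count was 16 without knockdown control replicate 1, 1045 without control replicate 2 and 0 without either KAI1 knockdown library. The Eno1b difference was -4.62 to -3.58 with a library left out. It was -3.58 without control replicate 2, where the spread within groups comes from the knockdown pair alone. In the alternatives that kept all libraries its limma adjusted p ranged from 0.217 to 0.84. Hk3 and Slc2a3, picked from the fit without control replicate 2, differed by 2.19 and -1.64 there, against 1.06 and -0.84 in the main fit. With a library left out, the enolase sum ranged from -0.20 to 0.85, the median of the members from -0.16 to 0.73, that of the further genes from -0.060 to 0.26, Aldoa from -0.55 to 0.75, Tpi1 from -0.26 to 0.78, Pgk1 from -0.91 to 1.38, Pkm from -0.0076 to 0.71 and Ldha from -0.49 to 0.29. Members above all controls and below them numbered 4 and 1 without KAI1 knockdown replicate 1 (32.0% and 25.7% of entries), 1 and 4 without KAI1 knockdown replicate 2 (29.2% and 25.8%), 1 and 4 without control replicate 1 (42.0% and 36.0%) and 6 and 3 without control replicate 2 (44.2% and 41.3%), counts added after seeing the data. The cause of these changes was not tested. The replicate numbers are not stated to mark a shared culture, and deviations of same-numbered libraries correlated at -0.075. With the replicate block limma called 4 entries, 0 members and an enolase sum of 0.32 (adjusted p = 0.999), with an adjusted p of 0.22 for Eno1b. Under pseudocount, filter, scaling and block all 10 members kept direction and side of the threshold.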

Other observations

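Genes of neighbouring pathways were read from the same fits, and limma called 0 of them in the knockdown. Of all entries tested, 21.5% lay above both controls and 17.0% below, and the counts here are to be read against those shares. Citric acid cycle genes had a median difference of 0.30 over 15 genes, with 4 above both controls and 0 below, and 0 at an unadjusted p below 0.05. For example Dlst, a subunit of the oxoglutarate dehydrogenase complex, stood at 51.4 and 48.7 RPKM in the KAI1 knockdown, against 26.8 and 42.6 RPKM in the knockdown control. Pentose phosphate genes had a median of -0.0092 over 7 genes, with 1 above both controls and 1 below, and 0 at an unadjusted p below 0.05. Of 18 genes of the HIF pathway outside glycolysis, 0 lay above both controls and 4 below, with a median of -0.15 and 1 at an unadjusted p below 0.05. That gene was Ero1a, an oxidase of the endoplasmic reticulum, at 26.8 and 41.9 RPKM in the KAI1 knockdown, against 136 and 73.3 RPKM in the knockdown control (log2 difference -1.55, SE 0.43, limma adjusted p = 0.83).

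In the overexpression arm, with 1 library a side, 2 of the 18 HIF pathway genes were higher and 4 lower by 2-fold or more, against 4.92% and 5.21% of all entries. Ankrd37 stood at 4.05 RPKM in the KAI1 overexpression and 28.6 RPKM in its control, and Egln3, a prolyl hydroxylase that marks HIF for destruction, at 21.7 RPKM in the KAI1 overexpression and 82.6 RPKM in its control. Ndrg1 went the other way, at 154 RPKM in the KAI1 overexpression and 27.0 RPKM in its control, and was also highest in knockdown control replicate 1, at 659 RPKM. Myc stood at 23.5 and 36.4 RPKM in the KAI1 knockdown, against 12.2 and 24.0 RPKM in the knockdown control, and at 43.0 RPKM in the KAI1 overexpression against 26.5 RPKM in its control. Of the 4 Myc family genes 1, Mycn, lay above both controls, at 2.83 and 2.52 RPKM in the KAI1 knockdown, against 0.690 and 1.41 RPKM in the knockdown control. It was the 1 of the 4 with an unadjusted p below 0.05 (limma adjusted p = 0.83). Mycn stood at 18.4 RPKM in the KAI1 overexpression and 8.87 RPKM in its control, both above all 4 libraries of the knockdown arm.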
